A study of Mus musculus with 8 samples.

Results

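Imprinted genes outside the Igf2 locus were examined as a list of 40 genes, taken by symbol from a table of 38991 genes, of which 39 had an entry and 28 reached a level that could be tested. They were measured by RNA-seq in RGd2 cells, mouse embryonic stem cells (ESCs) of strain 129 that carry a destabilised GFP at the Rex1 locus, with 2 cultures in each of 4 media. All cultures had first spent 6 passages in 2i, a pair of inhibitors made of CH (CHIR99021, against the kinase GSK3) and PD (PD0325901, against the kinase MEK), and then 5 passages in their own medium, to passage 11. The media were N2B27 with the cytokine LIF, 3 μM CH and 1 μM PD (2i+LIF), CH and PD without LIF (2i), LIF and PD without CH (LIF+PD), and CH and LIF without PD (CH+LIF). The comparisons ask how these genes differ when 1 of the 3 factors is left out and the other 2 remain. All cultures come from a single cell line, and the values do not separate the parental alleles.

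An imprinted gene is transcribed from the chromosome inherited from only 1 parent, the maternal or the paternal. The choice is set by DNA methylation laid down in the egg or sperm at imprinting control regions and kept through the divisions of the embryo, and a control region often governs a cluster of neighbouring genes. Many of these genes act in the growth of the fetus and placenta, and ESCs are known to lose imprints in some culture media. The parental allele named for each gene below is textbook knowledge and was not measured. In RNA from whole cultures, fewer expressing cells and less RNA per cell cannot be told apart.

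Values are FPKM, which is sequenced fragments relative to transcript length and library size, and pairs of values give replicate 1 and then replicate 2. A log2 difference is a difference of log2(FPKM + 1) between condition means with its standard error, and each adjusted p is the Benjamini-Hochberg adjusted p of limma over 12927 genes, with a threshold of 0.05. Because of the added 1, such a difference understates the change of weakly expressed genes. Folds are ratios of mean FPKM. The sum of FPKM per culture lay between 715575 and 875458, and relative depth between 0.499 in replicate 1 of 2i and 1.18 in replicate 2 of CH+LIF. Cultures of a condition correlated at r = 0.974 to 0.983 across genes and cultures of different conditions at 0.930 to 0.954. The ESC factor Pou5f1 was at 1625 to 2269 FPKM in the 8 cultures. Of the 8 naive ESC markers listed, 4 fell in 2i, 3 fell and 1 rose in LIF+PD, and 2 fell in CH+LIF against 2i+LIF. Of all genes tested, 18.6%, 25.2% and 25.4% passed in these comparisons. Among the markers that fell were Klf4, with log2 differences of -2.0 in 2i and -0.85 in LIF+PD, and Nanog, with -0.80 in CH+LIF.

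The 4 tested members with the largest log2 differences for which a RefSeq promoter was at hand were Plagl1, Phlda2, Nnat and Mest. Their 250 bases upstream of the transcription start (RefSeq, GRCm38.p6) are shown because CG dinucleotides, the sites of DNA methylation, are given in capitals. The windows are chr10:13090582-13090831 on the plus strand for Plagl1, chr7:143502525-143502774 on the minus strand for Phlda2, chr2:157559828-157560077 on the plus strand for Nnat and chr6:30737800-30738049 on the plus strand for Mest. Each runs 5′ to 3′ on the strand of its gene, and for Mest, which has further RefSeq starts, 1 of 3 windows is shown.
Plagl1: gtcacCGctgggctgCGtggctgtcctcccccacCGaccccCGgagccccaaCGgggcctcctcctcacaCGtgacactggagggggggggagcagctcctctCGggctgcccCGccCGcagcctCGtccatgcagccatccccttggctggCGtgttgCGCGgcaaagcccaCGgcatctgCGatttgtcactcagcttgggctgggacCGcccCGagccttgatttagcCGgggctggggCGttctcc
Phlda2: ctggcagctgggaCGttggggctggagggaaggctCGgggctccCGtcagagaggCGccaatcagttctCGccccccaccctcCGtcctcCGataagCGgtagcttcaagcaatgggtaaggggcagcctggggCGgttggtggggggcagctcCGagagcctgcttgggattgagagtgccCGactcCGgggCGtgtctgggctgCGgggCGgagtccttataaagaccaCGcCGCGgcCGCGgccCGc
Nnat: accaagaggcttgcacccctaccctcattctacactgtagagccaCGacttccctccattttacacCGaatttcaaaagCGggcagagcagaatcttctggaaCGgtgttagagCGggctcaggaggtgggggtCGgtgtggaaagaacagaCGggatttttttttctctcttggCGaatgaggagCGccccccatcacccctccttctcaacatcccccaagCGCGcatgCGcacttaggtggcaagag
Mest: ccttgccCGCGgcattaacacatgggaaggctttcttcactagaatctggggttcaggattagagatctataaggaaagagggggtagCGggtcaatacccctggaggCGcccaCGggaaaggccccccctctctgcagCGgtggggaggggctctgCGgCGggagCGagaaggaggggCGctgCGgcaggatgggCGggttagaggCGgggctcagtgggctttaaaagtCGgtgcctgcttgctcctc

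These stretches hold 19 CG for Plagl1, 21 for Phlda2, 12 for Nnat and 14 for Mest. With the 50 bases after the start included, the windows of 300 bases hold 26 CG for Plagl1 and for Phlda2, and 16.9% of all 32817 RefSeq windows hold as many or more. For Nnat and Mest the number is 17 CG, matched or passed by 31.4% of all windows. The letters TGCCGC, which belong to the sequence bound by ZFP57, a protein that keeps imprints methylated, were looked for on both strands. They occur 1 time in the upstream stretch of Plagl1, 2 times in that of Mest and not in those of Phlda2 and Nnat. In Nnat they occur 1 time in the bases after the start. Among the 49 windows of the 32 members with an entry, 20.4% hold these letters, against 11.6% of all windows. These 10 windows belong to 9 members, and those of Mest overlap. The letters contain a CG, and member windows hold a median of 10 CG against 7 in all windows. A match is a description of the letters and not a binding site, and the methylation of these regions was not measured here.

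Of the 11 members that were not tested, Dlk1 (a Notch-like membrane protein), Rtl1 (a placental protein from a retrotransposon), Rian (a host transcript of small nucleolar RNAs) and Dcn (decorin, of fibroblast matrix) were listed at 0 in all 8 cultures. Kcnq1, Magel2, Airn, Usp29, Zim1, Asb4 and Slc22a3 had values, none above 0.492 FPKM in any culture. The RNA Kcnq1ot1, antisense to Kcnq1, had no entry under that symbol and so was not analysed here. The tested members spanned a wide range, from Cd81, a tetraspanin, at 138 to 338 FPKM, to Osbpl5, a lipid transfer protein, at 0.104 to 2.11 FPKM. Of the 28 tested members, 14 are listed here as maternally expressed and 13 as paternally expressed, and Gnas has transcripts of either kind. Ube3a is known as maternally expressed in neurons, and expression from 1 allele in these cells was not measured for any member. Because a gene had to reach 1 FPKM in 2 cultures to be tested, Nnat entered only through media where it was high: it was above 1 FPKM in 6 cultures, none of them in 2i+LIF. Osbpl5 passed this filter through 1 culture each of 2i+LIF and 2i.

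**Figure D1:**
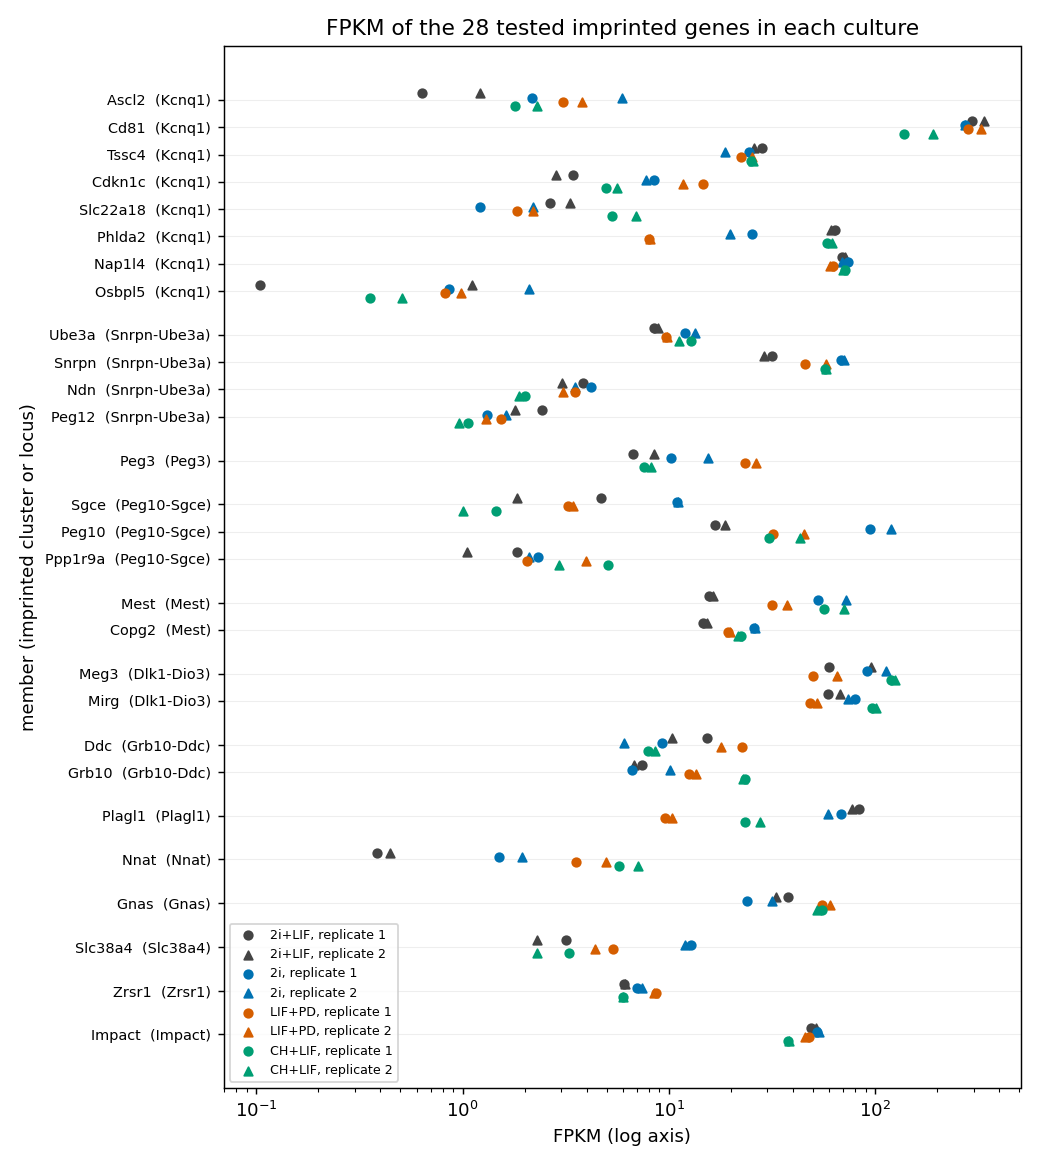
FPKM on a log axis of the 28 tested imprinted genes, grouped by cluster, in each of the 8 cultures (circles are replicate 1, triangles replicate 2, colours the media). Cd81 is the most abundant in every culture, and the 2i+LIF cultures of Nnat and Mest lie to the left of all others.

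Against 2i+LIF, the mean FPKM of Mest was 3.89-fold higher in 2i, 2.14-fold higher in LIF+PD and 3.97-fold higher in CH+LIF, and that of Snrpn 2.29-fold, 1.7-fold and 1.89-fold higher. Peg10 was 6.01-fold, 2.17-fold and 2.07-fold higher in the same order. Phlda2 was 2.78-fold lower in 2i and 7.75-fold lower in LIF+PD, and Plagl1 8.03-fold lower in LIF+PD and 3.16-fold lower in CH+LIF. In 2i against 2i+LIF, 11 of the 28 members passed the threshold, 10 higher and 1 lower, where 18.6% of all genes tested did. In LIF+PD against 2i+LIF, 15 members passed, 12 higher and 3 lower, beside 25.2% of all genes. In CH+LIF against 2i+LIF, 16 members passed, 11 higher and 5 lower, beside 25.4% of all genes. The members that passed were 39.3%, 53.6% and 57.1% of those tested, above the background each time. However, not all members reached the test, and no test was run on the list. The members were also chosen with earlier results of these data known, so these shares do not measure an excess. The 3 comparisons share the 2i+LIF cultures, and no overlap between them was computed.

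By direction, 9.77% of all genes rose and 8.86% fell without LIF, 14.8% rose and 10.4% fell without CH, and 12.2% rose and 13.3% fell without PD. The median log2 difference of the 28 members was 0.34, 0.34 and 0.24 in the 3 comparisons, and that of all genes was 0.04, 0.03 and 0.01. Of the 13 members listed as paternally expressed, 6 rose and 0 fell without LIF. Without CH 7 of them rose and 1 fell, and without PD 4 rose and 4 fell. Of the 14 members listed as maternally expressed, 4 rose and 1 fell without LIF. Without CH 4 of them rose and 2 fell, and without PD 6 rose and 1 fell. When every culture was rescaled to the same sum, as TPM, the median log2 difference of all genes shifted by 0.122 in LIF+PD and by 0.178 in CH+LIF against 2i+LIF, to 0.156 and 0.185. The members then numbered 9 higher and 1 lower without LIF, 13 and 2 without CH, and 13 and 2 without PD, while the share of higher calls among all genes called went from 58.6% to 74.8% without CH and from 47.9% to 74.1% without PD.

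Between the media with 2 factors, the members moved both ways. In LIF+PD against 2i, 16 members passed, 6 higher and 10 lower, beside 25.1% of all genes. In CH+LIF against 2i, 14 passed, 6 higher and 8 lower, beside 23.9%. In CH+LIF against LIF+PD, 16 passed, 7 higher and 9 lower, beside 30.4%. Rescaled to TPM, these counts became 5 higher and 7 lower, 6 and 5, and 8 and 7, while the share of higher calls among all genes called went from 44.5% to 64.1% for CH+LIF against 2i. A difference of any kind among the 4 media was found for 22 members, beside 46.8% of all genes. In all, 24 of the 28 members passed in at least 1 of the 6 comparisons, beside 56.2% of all genes, and Nap1l4, Osbpl5, Ppp1r9a and Tssc4 passed in none.

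**Figure D2:**
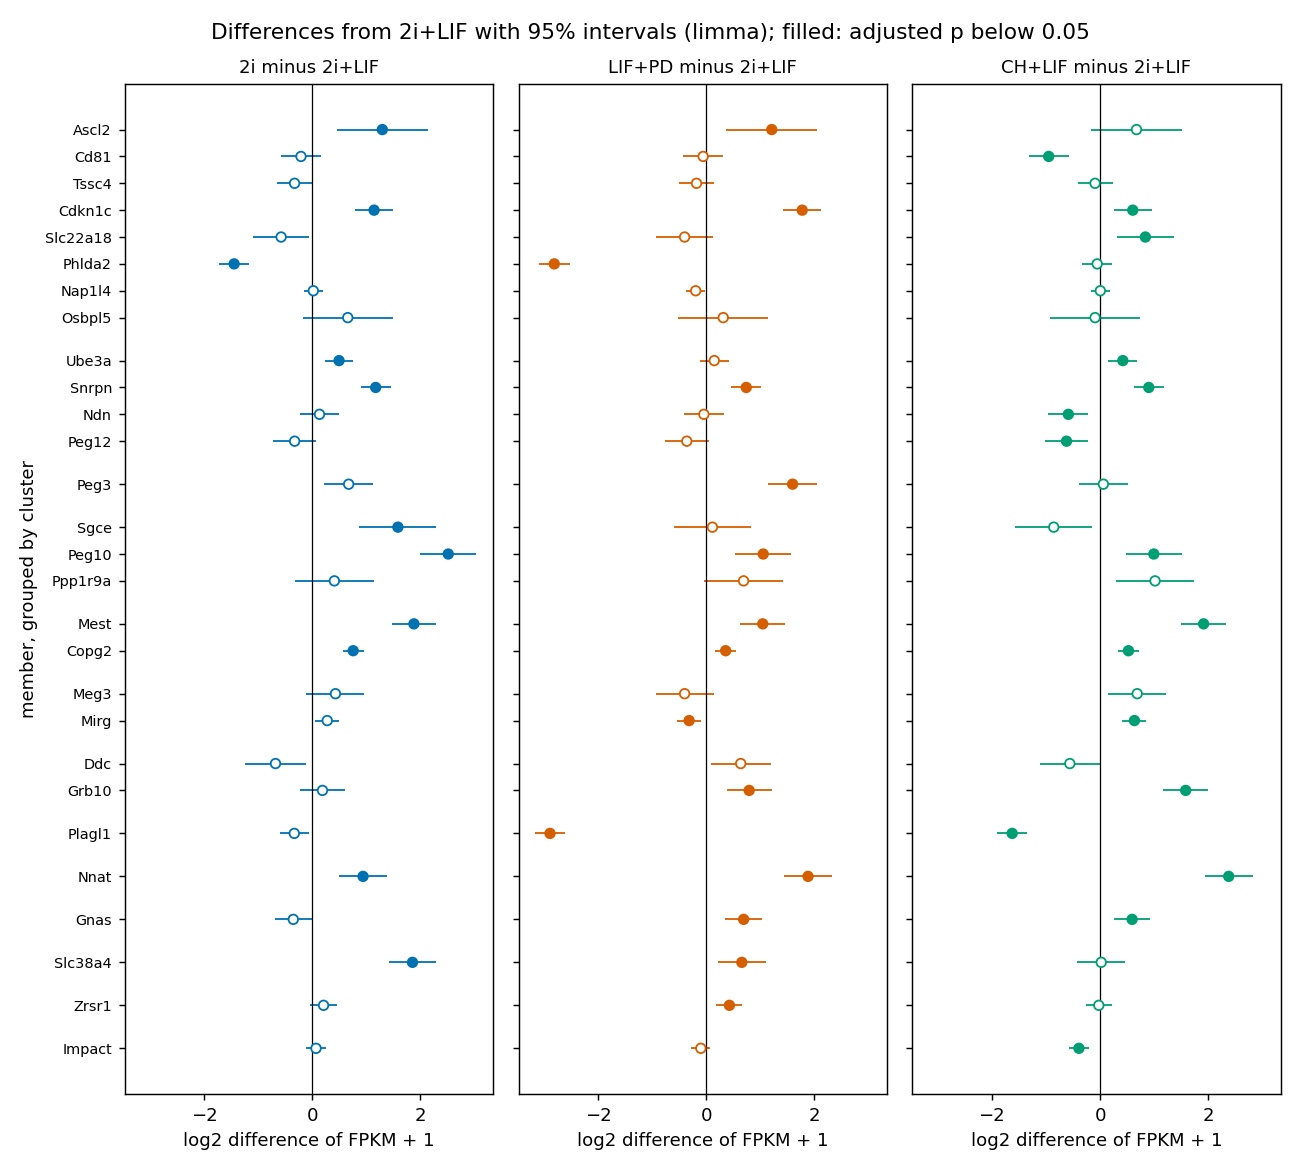
Log2 differences of FPKM + 1 of each tested member from 2i+LIF, with 1 panel per medium; points are limma estimates, lines 95% intervals, and filled points have an adjusted p below 0.05. Plagl1 and Phlda2 reach -2.89 and -2.81 in LIF+PD, Peg10 reaches 2.51 in 2i and Nnat 2.38 in CH+LIF.

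Plagl1 (ENSMUSG00000019817, chr10:13090691-13131694, plus strand), a paternally expressed zinc finger factor that regulates other imprinted genes, had the largest log2 difference of any member, although by the ratio of means the weakly expressed Nnat and Sgce reached larger folds. It was at 83.0 and 77.4 FPKM in 2i+LIF, 68.1 and 59.0 in 2i, 9.56 and 10.4 in LIF+PD, and 23.3 and 27.5 in CH+LIF. The 4 media with their 2 cultures each did not overlap, with LIF+PD lowest and CH+LIF next. Plagl1 fell by 2.89 ± 0.12 on the log2 scale without CH (adjusted p = 3.24e-05), which is 8.03-fold. It fell by 1.62 ± 0.12 without PD (adjusted p = 0.000427), which is 3.16-fold. Without LIF the log2 difference of -0.33 ± 0.12 did not pass (adjusted p = 0.09). Between the media with 2 factors, Plagl1 was lower in LIF+PD than in 2i by 6.37-fold (adjusted p = 3.58e-05) and than in CH+LIF by 2.54-fold (adjusted p = 0.00041). These calls held with any 1 culture left out and under every other setting tried.

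The Kcnq1 domain on chromosome 7 holds maternally expressed genes, several of which restrain growth, and 8 of its members were tested. Phlda2 (ENSMUSG00000010760, chr7:143501545-143502541, minus strand), which limits placental growth, was at 64.1 and 61.0 FPKM in 2i+LIF, 25.2 and 19.8 in 2i, 8.0 and 8.14 in LIF+PD, and 58.5 and 62.0 in CH+LIF. The 2 media with both CH and LIF overlapped at the high level, and 2i and LIF+PD lay apart from them and from each other. Phlda2 fell by 1.45 ± 0.12 on the log2 scale without LIF (adjusted p = 0.000474) and fell by 2.81 ± 0.12 without CH (adjusted p = 4.24e-05), or 2.78-fold and 7.75-fold. In CH+LIF against 2i+LIF the difference was -0.05 ± 0.12 (adjusted p = 0.778). Phlda2 was 7.47-fold higher in CH+LIF than in LIF+PD (adjusted p = 4.56e-05). Every one of its calls held without any 1 culture.

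Cdkn1c (ENSMUSG00000037664, chr7:143458350-143461050, minus strand) encodes the cyclin-dependent kinase inhibitor p57 and lies in the same domain. It was at 3.44 and 2.84 FPKM in 2i+LIF, 8.47 and 7.77 in 2i, 14.6 and 11.8 in LIF+PD, and 4.96 and 5.61 in CH+LIF. Its order, from 2i+LIF through CH+LIF and 2i to LIF+PD, had no overlap between media, and its highest medium was the lowest for Phlda2. Cdkn1c rose by 1.14 ± 0.15 without LIF (adjusted p = 0.00283), by 1.77 ± 0.15 without CH (adjusted p = 0.000409) and by 0.60 ± 0.15 without PD (adjusted p = 0.0253). It was 2.5-fold lower in CH+LIF than in LIF+PD (adjusted p = 0.00153), 1.63-fold higher in LIF+PD than in 2i (adjusted p = 0.0203) and 1.54-fold lower in CH+LIF than in 2i (adjusted p = 0.0387). The rise without PD was lost without any 1 of the 4 cultures compared, with an adjusted p of up to 0.125. The call of LIF+PD against 2i was lost without replicate 1 or 2 of 2i or replicate 1 of LIF+PD (adjusted p up to 0.114, log2 difference 0.49 to 0.78), and that of CH+LIF against 2i without any 1 of the 2i+LIF, 2i or CH+LIF cultures (adjusted p up to 0.169).

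Cd81 (ENSMUSG00000037706, chr7:143052739-143067934, plus strand), a tetraspanin of the cell surface, was at 294 and 338 FPKM in 2i+LIF, 274 and 271 in 2i, 283 and 324 in LIF+PD, and 138 and 191 in CH+LIF. Only the cultures without PD lay below the rest. Cd81 fell by 0.95 ± 0.16 on the log2 scale in CH+LIF against 2i+LIF (adjusted p = 0.00641). It was also lower in CH+LIF than in LIF+PD by 1.84-fold (adjusted p = 0.00595) and than in 2i by 1.65-fold (adjusted p = 0.0168). The last call was lost without replicate 1 or 2 of 2i or replicate 1 of CH+LIF (adjusted p up to 0.0662) and after rescaling to TPM (adjusted p = 0.0543).

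Slc22a18 (ENSMUSG00000000154, chr7:143473721-143499334, plus strand), an organic cation transporter-like protein, went the opposite way without PD. Its levels were 2.64 and 3.33 FPKM in 2i+LIF, 1.22 and 2.19 in 2i, 1.83 and 2.21 in LIF+PD, and 5.32 and 6.96 in CH+LIF, so that CH+LIF lay above every other culture. Slc22a18 was 3.6-fold higher in CH+LIF than in 2i (adjusted p = 0.00526) and 3.04-fold higher than in LIF+PD (adjusted p = 0.00623). Against 2i+LIF the log2 difference of 0.84 ± 0.22 also passed (adjusted p = 0.0322), but not without any 1 of the 4 cultures compared (adjusted p up to 0.151, log2 difference 0.67 to 1.00). Ascl2 (ENSMUSG00000009248, chr7:142966822-142969264, minus strand), a helix-loop-helix factor of trophoblast, was at 0.638 and 1.22 FPKM in 2i+LIF, 2.17 and 5.90 in 2i, 3.06 and 3.81 in LIF+PD, and 1.81 and 2.30 in CH+LIF. The 2i+LIF cultures were the lowest, and the 2i cultures lay far apart. Ascl2 was higher without LIF (log2 difference 1.29 ± 0.36, adjusted p = 0.0454) and without CH (1.21 ± 0.36, adjusted p = 0.0457). Both calls were lost without either 2i+LIF culture and without any 1 culture of LIF+PD or CH+LIF (adjusted p up to 0.195), and the first also without replicate 2 of 2i, where its log2 difference was 0.73.

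The other 3 tested members of the domain passed in no comparison. Nap1l4, a histone chaperone between Phlda2 and Osbpl5, stayed within 60.5 to 73.6 FPKM, and Tssc4, an assembly factor of the spliceosome, within 18.6 to 28.2 FPKM. The log2 difference of Nap1l4 was 0.02, -0.19 and 0.00 (SE 0.07) without LIF, CH and PD. Osbpl5 was at 0.104 and 1.11 FPKM in 2i+LIF, 0.860 and 2.11 in 2i, 0.820 and 0.980 in LIF+PD, and 0.356 and 0.511 in CH+LIF, with wide spread between cultures of a medium. Neighbours in the domain thus had different orders of the media. In CH+LIF against LIF+PD, Cd81 and Cdkn1c were lower while Slc22a18 and Phlda2 were higher.

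**Figure D3:**
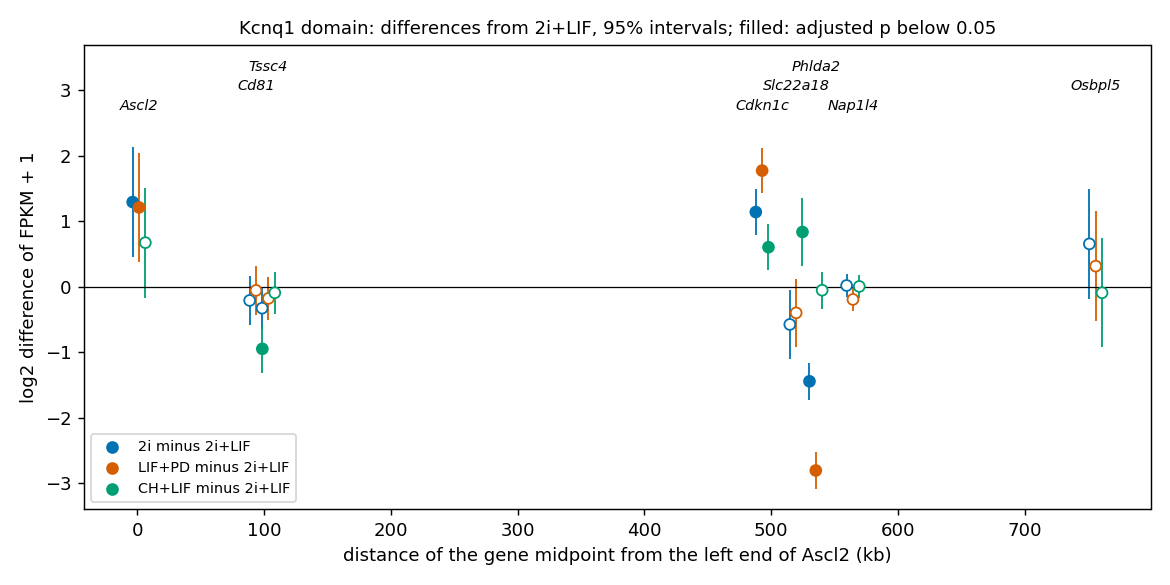
Log2 differences from 2i+LIF of the 8 tested members of the Kcnq1 domain against the distance of the gene midpoint from the left end of Ascl2, in kb; lines are 95% intervals, filled points have an adjusted p below 0.05, and the 3 media are set slightly apart sideways. Phlda2 lies below 0 in 2i and LIF+PD, Cdkn1c above 0 in all 3 media, and their neighbour Nap1l4 near 0.

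Peg10 and Sgce are paternally expressed neighbours on chromosome 6 that are transcribed away from each other from nearly adjoining starts. Peg10 (ENSMUSG00000092035, chr6:4747306-4760517, plus strand), a gene of retrotransposon origin that the placenta needs, was at 16.8 and 18.7 FPKM in 2i+LIF, 94.2 and 119 in 2i, 31.8 and 45.0 in LIF+PD, and 30.5 and 43.1 in CH+LIF. The 2i cultures stood above all others, and LIF+PD and CH+LIF overlapped between them and 2i+LIF. Peg10 rose by 2.51 ± 0.22 on the log2 scale without LIF (adjusted p = 0.000582), which is 6.01-fold, the largest rise of a member in that comparison. Without CH it rose by 1.05 ± 0.22 (adjusted p = 0.0136) and without PD by 0.99 ± 0.22 (adjusted p = 0.0172). It was 2.77-fold lower in LIF+PD than in 2i (adjusted p = 0.00353) and 2.9-fold lower in CH+LIF than in 2i (adjusted p = 0.0037). The rises without CH and without PD were lost without either 2i+LIF culture or without replicate 2 of LIF+PD or CH+LIF (adjusted p up to 0.0748 and 0.0871), with log2 differences of 0.81 to 1.30 and 0.75 to 1.24.

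Sgce (ENSMUSG00000004631, chr6:4674350-4747204, minus strand), the epsilon-sarcoglycan, was at 4.68 and 1.83 FPKM in 2i+LIF, 10.9 and 11.1 in 2i, 3.24 and 3.45 in LIF+PD, and 1.45 and 1.01 in CH+LIF. Like Peg10 it was highest in 2i, but its CH+LIF cultures were the lowest of all, and the 2i+LIF cultures lay far from each other. Sgce was 8.98-fold lower in CH+LIF than in 2i (log2 difference -2.44 ± 0.30, adjusted p = 0.00209). It rose by 1.58 ± 0.30 without LIF (adjusted p = 0.0124), and was 3.29-fold lower in LIF+PD than in 2i (adjusted p = 0.0125) and 2.73-fold lower in CH+LIF than in LIF+PD (adjusted p = 0.0476). The rise without LIF was lost without either 2i culture (adjusted p up to 0.0522), and its log2 difference was 2.08 without replicate 1 of 2i+LIF and 1.08 without replicate 2. The difference between LIF+PD and 2i was lost without replicate 1 of 2i or either LIF+PD culture (adjusted p up to 0.0619), and that between CH+LIF and LIF+PD without any 1 of the 2i, LIF+PD or CH+LIF cultures (adjusted p up to 0.178). Ppp1r9a (neurabin, an actin-binding protein), a maternally expressed neighbour, was at 1.84 and 1.05 FPKM in 2i+LIF, 2.32 and 2.09 in 2i, 2.05 and 3.99 in LIF+PD, and 5.07 and 2.93 in CH+LIF. The largest of its differences, 1.02 ± 0.31 in CH+LIF against 2i+LIF, did not pass (adjusted p = 0.0506).

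Mest (ENSMUSG00000051855, chr6:30723547-30748455, plus strand), a paternally expressed hydrolase-fold protein of mesodermal and adipose tissue, was at 15.7 and 16.4 FPKM in 2i+LIF, 52.7 and 72.3 in 2i, 31.5 and 37.2 in LIF+PD, and 56.5 and 70.9 in CH+LIF. The 2i+LIF cultures were lowest and close together, LIF+PD came next, and 2i and CH+LIF overlapped at the top. Mest rose by 1.88 ± 0.17 on the log2 scale without LIF (adjusted p = 0.000764), by 1.05 ± 0.17 without CH (adjusted p = 0.00598) and by 1.91 ± 0.17 without PD (adjusted p = 0.000894). These 3 rises held without any 1 culture. Mest was also 1.82-fold lower in LIF+PD than in 2i (adjusted p = 0.0135) and 1.86-fold higher in CH+LIF than in LIF+PD (adjusted p = 0.01). The first was lost without replicate 2 of 2i or replicate 1 of LIF+PD (adjusted p up to 0.0779, log2 difference -1.06 to -0.61), and the second without replicate 1 of LIF+PD or replicate 2 of CH+LIF (adjusted p up to 0.0613).

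Copg2 (ENSMUSG00000025607, chr6:30747554-30896794, minus strand), a subunit of the coat of Golgi vesicles, is read from the opposite strand and overlaps the 3′ end of Mest. It was at 14.7 and 15.3 FPKM in 2i+LIF, 26.0 and 26.0 in 2i, 19.3 and 19.7 in LIF+PD, and 22.4 and 21.6 in CH+LIF. The 4 media did not overlap, and the 2i+LIF cultures were the lowest, as for Mest. Copg2 rose by 0.76 ± 0.08 without LIF (adjusted p = 0.00139), by 0.36 ± 0.08 without CH (adjusted p = 0.0191) and by 0.53 ± 0.08 without PD (adjusted p = 0.00513). It was 1.33-fold lower in LIF+PD than in 2i (adjusted p = 0.0127). The rise without CH was lost without any 1 of the 4 cultures compared (adjusted p up to 0.102), and the last difference without replicate 1 of 2i or either LIF+PD culture (adjusted p up to 0.0683) and after rescaling to TPM (adjusted p = 0.0654). Whether the FPKM values were made by strand is not given in the sources used here, so the split of fragments in the shared stretch of Mest and Copg2 is uncertain.

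**Figure D4:**
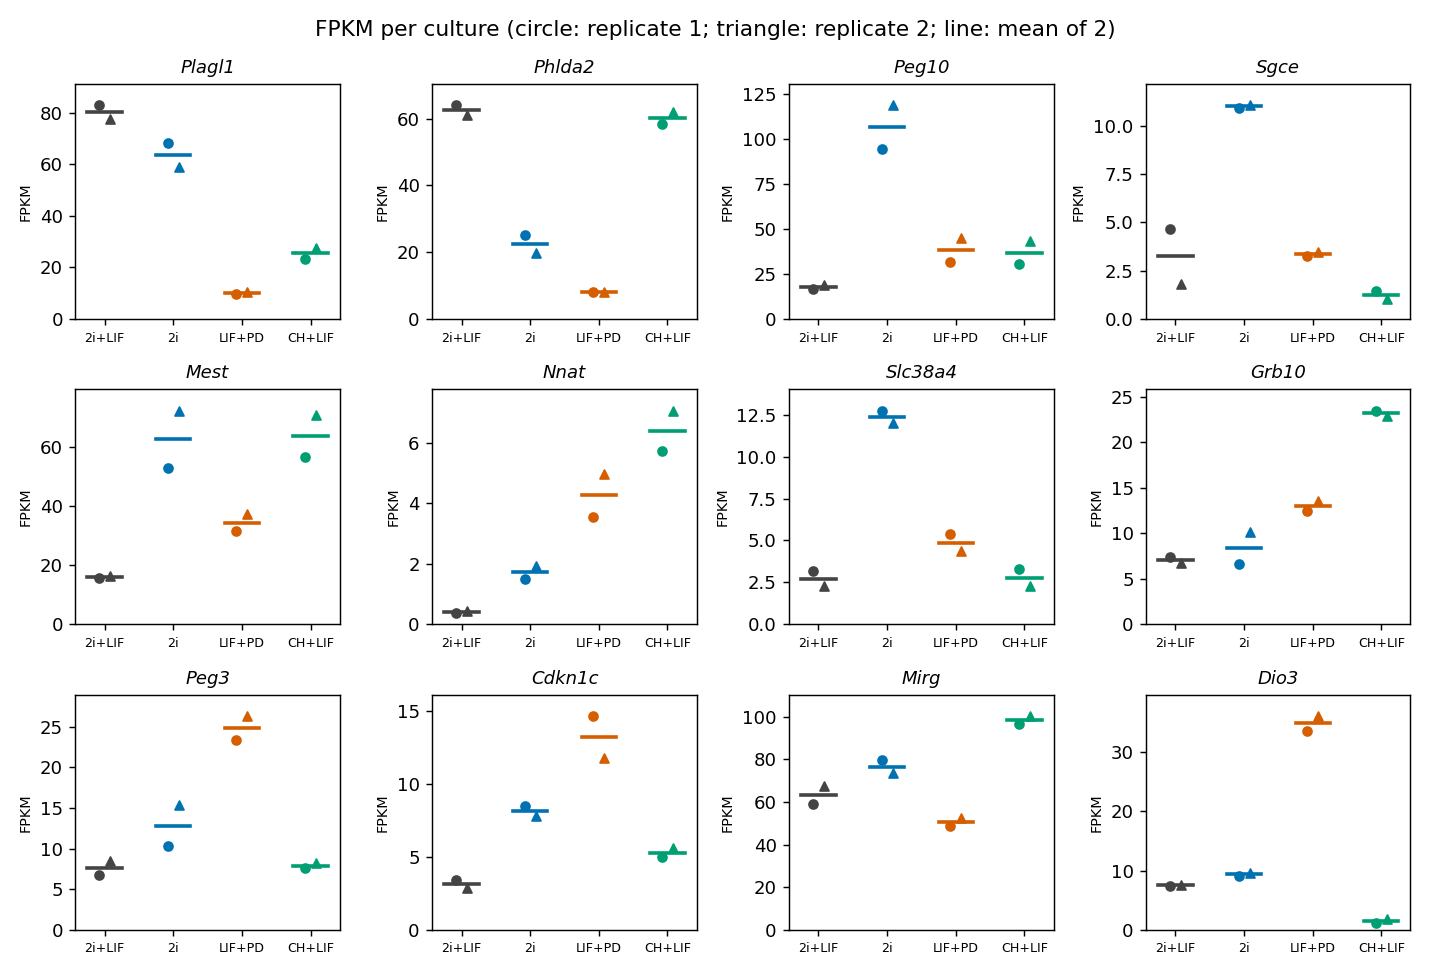
FPKM of 11 members and of Dio3 in each culture (circle, replicate 1; triangle, replicate 2; line, mean of 2), each panel with its own axis from 0. Phlda2 is high in 2i+LIF and CH+LIF, Peg10, Sgce and Slc38a4 are highest in 2i, Peg3 and Cdkn1c in LIF+PD, and Grb10 and Nnat in CH+LIF.

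The Snrpn-Ube3a domain on chromosome 7, the counterpart of the human region of Prader-Willi and Angelman syndromes, had 4 tested members. Snrpn (ENSMUSG00000000948, chr7:59982495-60140219, minus strand), a paternally expressed protein of the spliceosome, was at 31.7 and 28.8 FPKM in 2i+LIF, 68.3 and 70.4 in 2i, 45.4 and 57.7 in LIF+PD, and 57.1 and 57.5 in CH+LIF. The 2i+LIF cultures lay below all others and the 2i cultures above. Snrpn rose by 1.17 ± 0.12 without LIF (adjusted p = 0.0011), by 0.74 ± 0.12 without CH (adjusted p = 0.00505) and by 0.90 ± 0.12 without PD (adjusted p = 0.00295), all held without any 1 culture. Its lower level in LIF+PD than in 2i, 1.35-fold (adjusted p = 0.0374), was lost without any 1 culture but replicate 2 of LIF+PD (adjusted p up to 0.158, log2 difference -0.60 to -0.26). The Snrpn entry shares its strand with the overlapping Snurf and Snhg14, which cannot be told apart from it by strand. The Snurf entry was at 113 and 50.1 FPKM in 2i+LIF and 302 and 164 in 2i. It was at 78.5 and 213 FPKM in LIF+PD and 166 and 94.3 in CH+LIF, with wide spread between cultures of a medium. Log2 differences of Snurf from 2i+LIF were 1.55 without LIF, 0.77 without CH and 0.73 without PD. None of these passed (adjusted p = 0.112, 0.372 and 0.403), nor did any difference of Snurf between the other media.

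Ube3a (ENSMUSG00000025326, chr7:59228752-59306727, plus strand), a ubiquitin ligase that is maternally expressed in neurons, was at 8.5 and 8.87 FPKM in 2i+LIF, 11.9 and 13.4 in 2i, 9.65 and 9.84 in LIF+PD, and 12.8 and 11.2 in CH+LIF. The cultures of 2i and CH+LIF overlapped above those of LIF+PD and 2i+LIF. Ube3a rose by 0.49 ± 0.11 without LIF (adjusted p = 0.0248) and by 0.42 ± 0.11 without PD (adjusted p = 0.0339). The first was lost without either 2i+LIF culture or replicate 2 of 2i (adjusted p up to 0.115), and the second without any 1 culture of 2i+LIF, LIF+PD or CH+LIF (adjusted p up to 0.175, log2 difference 0.33 to 0.51).

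The paternally expressed Ndn and Peg12, at the far end of the domain, were weakly expressed and lowest in CH+LIF. Ndn (ENSMUSG00000033585, chr7:62348277-62349928, plus strand), the growth-restraining necdin, was at 3.83 and 3.04 FPKM in 2i+LIF, 4.20 and 3.51 in 2i, 3.51 and 3.07 in LIF+PD, and 2.01 and 1.87 in CH+LIF. The first 3 media overlapped and CH+LIF lay below them. Ndn was lower in CH+LIF than in 2i+LIF by 1.77-fold (adjusted p = 0.0329), than in 2i by 1.98-fold (adjusted p = 0.0177) and than in LIF+PD by 1.7-fold (adjusted p = 0.0372). Peg12 (ENSMUSG00000070526, chr7:62461871-62464510, minus strand), a GSK3-binding protein of the FRAT family, was at 2.41 and 1.80 FPKM in 2i+LIF, 1.32 and 1.62 in 2i, 1.53 and 1.30 in LIF+PD, and 1.07 and 0.960 in CH+LIF. Its difference passed only in CH+LIF against 2i+LIF (-0.62 ± 0.17, adjusted p = 0.037). The calls of Ndn and Peg12 against 2i+LIF and of Ndn against LIF+PD were lost without any 1 of the 4 cultures compared (adjusted p up to 0.168, 0.188 and 0.164), and that of Peg12 also without either LIF+PD culture. That of Ndn against 2i was lost without replicate 1 of 2i or either CH+LIF culture (adjusted p up to 0.0815), and after rescaling to TPM Ndn and Peg12 did not pass against 2i+LIF (adjusted p up to 0.0739).

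In the Dlk1-Dio3 domain on chromosome 12, the maternally expressed noncoding RNAs Meg3 and Mirg were abundant. Rian, a further maternally expressed RNA, and the paternally expressed Dlk1 and Rtl1 were listed at 0. Rian has a further entry on a patch sequence, also at 0. Only reads with 1 mapped place were kept, and whether that removed reads of Rian was not tested. Loss of Meg3 and its neighbours is known in ESC and iPSC lines with limited developmental potential. Meg3 (ENSMUSG00000021268, chr12:109541001-109571726, plus strand), a long noncoding RNA, was at 59.6 and 95.3 FPKM in 2i+LIF, 91.6 and 113 in 2i, 50.0 and 64.9 in LIF+PD, and 119.5 and 124 in CH+LIF. Mirg (ENSMUSG00000097391, chr12:109729764-109749460, plus strand), a host transcript of microRNAs, was at 58.8 and 67.4 FPKM in 2i+LIF, 79.5 and 73.6 in 2i, 48.5 and 52.4 in LIF+PD, and 96.5 and 100.3 in CH+LIF. Both were highest in CH+LIF and lowest in LIF+PD by their means, with no overlap between those media.

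Meg3 was 2.12-fold higher in CH+LIF than in LIF+PD (adjusted p = 0.0119) and 1.78-fold lower in LIF+PD than in 2i (adjusted p = 0.0371), and passed in no comparison with 2i+LIF, whose cultures spread widely. Mirg was 1.95-fold higher in CH+LIF than in LIF+PD (adjusted p = 0.000582), 1.52-fold lower in LIF+PD than in 2i (adjusted p = 0.00466) and 1.29-fold higher in CH+LIF than in 2i (adjusted p = 0.0331). Against 2i+LIF, Mirg rose by 0.64 ± 0.09 without PD (adjusted p = 0.00438) and fell by 0.32 ± 0.09 without CH (adjusted p = 0.0489). The last call was lost without any 1 of the 8 cultures (adjusted p up to 0.226, log2 difference -0.41 to -0.22) and after rescaling to TPM (adjusted p = 0.283). Those of Meg3 were lost without replicate 1 of LIF+PD or either CH+LIF culture (adjusted p up to 0.0701, against LIF+PD) or without any 1 culture of 2i, LIF+PD or CH+LIF (adjusted p up to 0.173, LIF+PD against 2i), and that of Mirg in CH+LIF against 2i without any 1 of the 4 cultures compared (adjusted p up to 0.127). Dio3, the deiodinase at the other end of the domain and no member of the list of 40, was highest in LIF+PD and lowest in CH+LIF. It was at 7.46 and 7.52 FPKM in 2i+LIF, 9.06 and 9.61 in 2i, 33.6 and 36.1 in LIF+PD, and 1.11 and 1.88 in CH+LIF, and its log2 difference in CH+LIF against LIF+PD was -3.86 (adjusted p = 3.9e-05).

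Grb10 and Ddc are neighbours on chromosome 11 with opposite parental expression. Grb10 (ENSMUSG00000020176, chr11:11930508-12038683, minus strand), a maternally expressed adaptor that restrains insulin and IGF receptors, was at 7.40 and 6.77 FPKM in 2i+LIF, 6.60 and 10.2 in 2i, 12.5 and 13.6 in LIF+PD, and 23.5 and 22.9 in CH+LIF. Its CH+LIF cultures were highest, LIF+PD was next, and 2i+LIF and 2i overlapped. Grb10 rose by 1.58 ± 0.18 without PD (adjusted p = 0.00163) and by 0.79 ± 0.18 without CH (adjusted p = 0.0177), or 3.27-fold and 1.84-fold. It was 2.77-fold higher in CH+LIF than in 2i (adjusted p = 0.00232), 1.78-fold higher in CH+LIF than in LIF+PD (adjusted p = 0.0153) and 1.56-fold higher in LIF+PD than in 2i (adjusted p = 0.0447). The rise without CH and the difference between CH+LIF and LIF+PD were lost without any 1 of the 4 cultures compared (adjusted p up to 0.0876 and 0.0784). The difference between LIF+PD and 2i was lost without any 1 culture but replicate 2 of 2i (adjusted p up to 0.172), and was 0.33 without replicate 1 of 2i.

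Ddc (ENSMUSG00000020182, chr11:11814101-11898144, minus strand), the decarboxylase of dopamine and serotonin synthesis, was at 15.3 and 10.3 FPKM in 2i+LIF, 9.22 and 6.03 in 2i, 22.6 and 18.0 in LIF+PD, and 7.90 and 8.55 in CH+LIF. LIF+PD stood above the rest and CH+LIF lay within the range of 2i. Ddc was 2.66-fold higher in LIF+PD than in 2i (adjusted p = 0.00714) and 2.46-fold lower in CH+LIF than in LIF+PD (adjusted p = 0.00919), and none of its differences from 2i+LIF passed. The second call was lost without replicate 1 of LIF+PD or of CH+LIF (adjusted p up to 0.0576), and the first had log2 differences of 1.05 to 1.59 with 1 culture left out.

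Peg3 (ENSMUSG00000002265, chr7:6703892-6730421, minus strand), a paternally expressed zinc finger protein tied to growth and maternal behaviour, was at 6.71 and 8.44 FPKM in 2i+LIF, 10.3 and 15.4 in 2i, 23.4 and 26.3 in LIF+PD, and 7.62 and 8.19 in CH+LIF. The LIF+PD cultures were above all others, and CH+LIF lay within the range of 2i+LIF. Peg3 rose by 1.60 ± 0.19 without CH (adjusted p = 0.00156), which is 3.28-fold, and was 3.14-fold lower in CH+LIF than in LIF+PD (adjusted p = 0.00144). It was 1.94-fold higher in LIF+PD than in 2i (adjusted p = 0.0129), a call that was lost without replicate 2 of LIF+PD (adjusted p = 0.0741). Without LIF the difference of 0.67 ± 0.19 did not pass (adjusted p = 0.0511). Its neighbours Usp29 and Zim1 were below the filter.

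Slc38a4 (ENSMUSG00000022464, chr15:96994823-97055956, minus strand), a paternally expressed amino acid transporter of placenta and liver, was at 3.18 and 2.29 FPKM in 2i+LIF, 12.7 and 12.02 in 2i, 5.36 and 4.38 in LIF+PD, and 3.29 and 2.30 in CH+LIF. Its 2i cultures stood above all others, LIF+PD came next, and CH+LIF and 2i+LIF overlapped. Slc38a4 rose by 1.85 ± 0.19 without LIF (adjusted p = 0.00109), or 4.53-fold, and was 4.43-fold lower in CH+LIF than in 2i (adjusted p = 0.00101) and 2.54-fold lower in LIF+PD than in 2i (adjusted p = 0.00435). It rose by 0.66 ± 0.19 without CH (adjusted p = 0.0411) and was 1.74-fold lower in CH+LIF than in LIF+PD (adjusted p = 0.0401). The rise without CH was lost without any 1 culture of 2i+LIF, 2i or LIF+PD (adjusted p up to 0.19, log2 difference 0.49 to 0.83), and the last difference without any 1 of the 2i or LIF+PD cultures or replicate 2 of CH+LIF (adjusted p up to 0.18, log2 difference -0.83 to -0.45).

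Nnat (ENSMUSG00000067786, chr2:157560078-157562522, plus strand), the paternally expressed neuronatin, a small protein of the endoplasmic reticulum, was at 0.385 and 0.445 FPKM in 2i+LIF, 1.5 and 1.94 in 2i, 3.56 and 4.97 in LIF+PD, and 5.72 and 7.06 in CH+LIF. The 4 media did not overlap, and every medium that lacked a factor lay above 2i+LIF. Nnat was 10.3-fold higher without CH (log2 difference 1.88 ± 0.19, adjusted p = 0.000742) and 15.4-fold higher without PD (2.38 ± 0.19, adjusted p = 0.000585). It was 4.14-fold higher without LIF (0.94 ± 0.19, adjusted p = 0.0156). It was 3.71-fold higher in CH+LIF than in 2i (adjusted p = 0.00265) and 2.48-fold higher in LIF+PD than in 2i (adjusted p = 0.0113). The rise without LIF was lost without either 2i+LIF culture or replicate 2 of 2i (adjusted p up to 0.0774), and the difference between LIF+PD and 2i without replicate 1 of 2i or replicate 2 of LIF+PD (adjusted p up to 0.0699, log2 difference 0.75 to 1.14). Nnat lies on the opposite strand within Blcap, which was at 9.12 to 14.3 FPKM over the 8 cultures.

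Gnas (ENSMUSG00000027523, chr2:174284320-174346744, plus strand) encodes the stimulatory G protein alpha subunit and, from other starts, transcripts imprinted in either direction, which the entry sums. It was at 38.0 and 32.9 FPKM in 2i+LIF, 23.9 and 31.7 in 2i, 55.2 and 60.4 in LIF+PD, and 55.5 and 52.2 in CH+LIF. The cultures of LIF+PD and CH+LIF overlapped above the others, and 2i was lowest. Gnas was 2.08-fold higher in LIF+PD than in 2i (adjusted p = 0.00251) and 1.94-fold higher in CH+LIF than in 2i (adjusted p = 0.00462). It rose by 0.69 ± 0.14 without CH (adjusted p = 0.0136) and by 0.59 ± 0.14 without PD (adjusted p = 0.024). The first rise was lost without replicate 2 of 2i+LIF or of LIF+PD (adjusted p up to 0.078), and the second without any 1 of the 4 cultures compared (adjusted p up to 0.123).

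Zrsr1 (ENSMUSG00000044068, chr11:22972005-22976496, plus strand), a paternally expressed splicing factor retrogene inside Commd1, was at 6.08 and 6.11 FPKM in 2i+LIF, 7.02 and 7.37 in 2i, 8.61 and 8.50 in LIF+PD, and 5.96 and 6.00 in CH+LIF. The media did not overlap and the range was narrow. Zrsr1 was 1.4-fold higher in LIF+PD than in 2i+LIF (adjusted p = 0.023) and 1.43-fold lower in CH+LIF than in LIF+PD (adjusted p = 0.0158). Impact (ENSMUSG00000024423), a paternally expressed regulator of the stress kinase GCN2 on chromosome 18, was at 48.8 and 51.7 FPKM in 2i+LIF, 52.2 and 53.3 in 2i, 47.9 and 45.7 in LIF+PD, and 37.7 and 38.4 in CH+LIF, which was the lowest. Impact was 1.32-fold lower in CH+LIF than in 2i+LIF (adjusted p = 0.011), 1.38-fold lower than in 2i (adjusted p = 0.00624) and 1.23-fold lower than in LIF+PD (adjusted p = 0.0256). After rescaling to TPM, none of the 3 calls of Impact remained (adjusted p = 0.204, 0.0592 and 0.145), nor that of Zrsr1 in CH+LIF against LIF+PD (adjusted p = 0.0603). Both calls of Zrsr1 and that of Impact against LIF+PD were lost without any 1 of the 4 cultures compared (adjusted p up to 0.102, 0.0762 and 0.128), and that of Impact against 2i+LIF without replicate 2 of 2i+LIF or replicate 1 of CH+LIF (adjusted p up to 0.0686).

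A further list of 40 imprinted genes from other loci or other places in these clusters had 22 tested symbols with 23 entries. Of these entries, 4 were higher and 2 lower in 2i than in 2i+LIF, 2 higher and 4 lower in LIF+PD, and 3 higher and 4 lower in CH+LIF, with median log2 differences of 0.15, -0.07 and -0.03. The share of all genes tested that passed was 18.6%, 25.2% and 25.4%. Casd1, a sialic acid acetylating enzyme beside Sgce, was at 2.79 and 2.75 FPKM in 2i+LIF and 9.02 and 6.45 in 2i, and rose with a log2 difference of 1.20 (adjusted p = 0.00847). Sfmbt2, a Polycomb-like protein of the placenta, rose with log2 differences of 1.86 in 2i (adjusted p = 0.00022) and 1.12 in LIF+PD (adjusted p = 0.0011).

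All 10 listed factors that protect imprints or carry out DNA methylation were tested. Against 2i+LIF, 2 were higher and 3 lower in 2i, 2 higher and 1 lower in LIF+PD, and 6 higher and 2 lower in CH+LIF, beside 18.6%, 25.2% and 25.4% of all genes. Zfp57, which binds methylated imprinting control regions, was at 208 to 350 FPKM in the 8 cultures and rose with a log2 difference of 0.61 in CH+LIF (adjusted p = 0.00922). Dppa3, a protector of the maternal genome in the early embryo, was at 66.0 and 47.9 FPKM in 2i+LIF and 2.37 and 2.30 in CH+LIF, a log2 difference of -4.10 (adjusted p = 0.000233). The de novo methylation factor Dnmt3l was at 47.1 and 25.4 FPKM in 2i+LIF and at 140 to 190 FPKM in the other 6 cultures. The part of these factors in the levels of the imprinted genes was not tested.

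Markers of other cell types moved with some of the media. The summed mesoderm list was at 5.22 to 6.18 FPKM in 2i+LIF, 9.38 to 16.3 in 2i, 1.78 to 2.00 in LIF+PD and 19.6 to 37.5 in CH+LIF. Most of this sum in CH+LIF was Brachyury (T), at 36.3 and 18.5 FPKM there. Its member Kdr went another way, at 0.932 and 1.03 FPKM in 2i+LIF and 0.280 and 0.353 in 2i. Kdr was at 1.41 and 1.38 in LIF+PD and 0.627 and 0.607 in CH+LIF. Mixl1 and Mesp1 stayed at or below 0.598 FPKM. The summed fibroblast list was at 0.270 to 0.617 FPKM in 2i+LIF and 1.5 to 4.19 in 2i. It was at 1.80 to 2.65 in LIF+PD and 4.00 to 17.1 in CH+LIF. Col3a1 and Lum were at 0 in all cultures, and Postn was at 14.1 FPKM in replicate 2 of CH+LIF alone. Against 2i+LIF its member Thy1 rose with log2 differences of 1.52 in 2i, 0.93 in LIF+PD and 1.78 in CH+LIF (adjusted p = 0.0102, 0.0469 and 0.00504). Those of Col1a1 (0.13, 0.60 and 0.26) did not pass. The summed trophectoderm list, among whose cells Phlda2 and Ascl2 are known to be expressed, was at 49.0 to 56.3, 46.0 to 51.4, 62.8 to 75.2 and 42.8 to 47.8 FPKM in the same order of media. Its members moved in different directions. Cdx2 was at 10.2 and 7.91 FPKM in 2i+LIF and at 0.0433 and 0.0960 in LIF+PD (log2 difference -3.23, adjusted p = 0.000336), where Phlda2 was also lowest. In the other media the 2 genes did not move together. Cdx2 fell to 1.90 and 0.733 FPKM in CH+LIF (log2 difference -2.16, adjusted p = 0.00193), where Phlda2 was at 58.5 and 62.0 FPKM. In 2i, where Phlda2 fell, Cdx2 was at 12.2 and 10.6 FPKM. Tfap2c rose in LIF+PD with a log2 difference of 1.00 (adjusted p = 0.00377). Krt8 fell in 2i with a log2 difference of -2.17 (adjusted p = 0.00406). The summed neural list was at 5.19 to 6.04, 10.6 to 12.4, 19.2 to 19.7 and 3.26 to 3.9 FPKM. In 2i its member Pax6 rose with a log2 difference of 2.64 (adjusted p = 9.67e-05). Those of Nes (-0.47) and Sox1 (-0.63) in 2i were below 0 and did not pass. The summed formative epiblast list was at 36.1 to 38.4 FPKM in 2i+LIF and 58.6 to 86.0 in 2i. It was at 96.8 to 104.6 in LIF+PD and 71.7 to 73.5 in CH+LIF. In LIF+PD its member Otx2 had a log2 difference of 4.03 (adjusted p = 2.27e-05) and Pou3f1 of 1.61 (adjusted p = 0.00234). Those of Dnmt3b (0.42) and Sox3 (0.135) there did not pass (adjusted p = 0.164 and 0.663). Most of the sum in CH+LIF was Dnmt3b, at 68.8 and 65.1 FPKM. In CH+LIF Dnmt3b rose with a log2 difference of 0.95 (adjusted p = 0.0147) and Sox3 of 1.11 (adjusted p = 0.00867). That of Otx2 there was 0.01 and did not pass. The summed naive list was at 3436 to 3884, 2971 to 3231, 2990 to 3180 and 3413 to 3577 FPKM. The part of such cells in the levels of the imprinted genes was not tested.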

How the data were processed

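RNA of 8 RGd2 cultures, 2 in each of 2i+LIF, 2i, LIF+PD and CH+LIF, had been sequenced from a single end. Alignment by the authors used TopHat2, the mm10 (GRCm38) genome and annotation of Ensembl 75, and only reads with 1 mapped place were kept. The deposited values are FPKM per gene and culture, with bounds that were not used. Cufflinks and Cuffdiff are named in the submitters' processing notes, and whether strand was used for FPKM is not given in the sources used here. The methods describe rRNA-depleted RNA, the sample records polyA RNA. The authors' read counts, made by strand with htseq-count (reverse setting), were not used here.

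The table has 39013 entries. Entries of the same Ensembl identifier were summed (22 repeats), which left 38991 genes. Values were used as log2(FPKM + 1) for the 12927 genes with at least 1 FPKM in at least 2 cultures. The 4 media entered a single limma 3.58.1 fit (R 4.3.3) with a mean-variance trend and 4 residual degrees of freedom, with 6 pairwise comparisons and an F test over the media, each Benjamini-Hochberg adjusted over all genes. Positions are those deposited, written from 1, and strands and overlaps come from GENCODE M21. Nothing in the records says more on how far the 2 cultures of a medium were independent, so p-values measure only the spread between these samples. FPKM hold no read counts, so no counting error is given, and relative depth was estimated from the steps of weakly expressed genes (17.4% to 22.8% of ratios gathered at 1 value).

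All 40 members were looked up, and every tested member that passed in at least 1 pairwise comparison is named with its values. Upstream sequences are shown for the 4 members with the largest differences that had a RefSeq window, of 16 members with a log2 difference of at least 1 and a passed test, 13 of which had one. Peg10 and Sgce had no window. The members and lists were chosen with earlier results of these data known. Alternatives were other pseudocounts (0.1 and 5), other filters (none and 5 FPKM), TPM, median-of-ratios and quantile scaling, no trend, a replicate block and each culture left out. The procedure was tested on simulated data. In a simulated comparison of CH+LIF against 2i+LIF over 12927 genes, it recovered 17.8% of log2 changes of 0.5, 63.0% of 1, 93.8% of 1.5 and 93.8% of 2. Only a small share of genes was changed in the simulation, whereas 25.4% passed in this comparison of the data. Recovery in the data may therefore differ and was not measured.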

Additional observations from a re-analysis of the deposited data

How the results depend on the processing

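No call of a member changed direction under any of the 17 alternatives in which it was tested. Of 88 calls of a member in a pairwise comparison, 45 held under all of them and 43 were lost under at least 1. In CH+LIF against 2i+LIF, 16 members passed, beside 3286 of 12927 genes. Without a filter on low values 10 members passed, beside 2724 of 21125 genes. With all 8 cultures, 62 calls were tested and held under every other setting. Without the filter 17 were lost, 6 of them in CH+LIF against 2i+LIF (Slc22a18, Ube3a, Gnas, Ndn, Cdkn1c and Peg12), where more genes were tested. Rescaling to TPM ended 14 calls, among them all 3 of Impact and those of Snrpn, Grb10, Meg3 and Copg2 in LIF+PD against 2i. A pseudocount of 5 ended 4 calls, among them that of Nnat in 2i against 2i+LIF (adjusted p = 0.0695), and the cause was not tested. The filter of 5 FPKM left Ndn, Peg12, Ascl2, Osbpl5 and Ppp1r9a untested. With 1 culture left out, the remaining culture of its medium was assumed to vary like the others, and the number of members called ranged from 8 to 12 in 2i (11 with all cultures), from 7 to 13 in LIF+PD (15) and from 9 to 16 in CH+LIF (16), each against 2i+LIF. It ranged from 9 to 14 in LIF+PD against 2i (16), from 10 to 14 in CH+LIF against 2i (14), from 7 to 16 in CH+LIF against LIF+PD (16), and from 17 to 22 for any difference (22). Same-numbered cultures shared only a number (r of their deviations -0.0283 to 0.0925). With the replicate number as a block, all 88 calls held. Against 2i+LIF, 14, 16 and 17 members then passed in 2i, LIF+PD and CH+LIF, beside 2547, 3470 and 3519 of 12927 genes. In LIF+PD against 2i 16 members passed, beside 3467 genes. In CH+LIF, 15 passed against 2i and 17 against LIF+PD, beside 3338 and 4105 genes. The F test with this block called 23 members, and its number of all genes called is not given here. With 2 cultures per medium and no read counts, differences near 0.5 on the log2 scale were mostly not recovered in simulated data. Far fewer genes changed there than in the data, where some smaller differences passed, such as 0.36 for Copg2 in LIF+PD against 2i+LIF. The simulated recovery therefore does not carry over to the data.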
